A study of Mus musculus with 6 samples.

Results

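The collagen genes of the mouse kidney were followed after clamping of the renal vessels, as every gene whose symbol in the platform annotation begins with Col, a number, the letter a and a number. There were 42 such genes among the 18193 with a probe set of 1 gene symbol, and each was read from its probe set with the highest mean intensity. They comprised 11 genes for fibrillar collagens, 6 for the type IV collagens of basement membranes and 25 for other collagens. Of the 42, 27 passed the filter on dim genes (7, 5 and 15 of the 3 groups), a mean log2(intensity + 16) of at least 6.01. Kidneys clamped for 45 or 60 min had higher intensities of most fibrillar and type VI collagen genes past the filter, and of Col8a1, at day 1 than the unclamped kidney of that day. At day 3 most of these genes stood at least 2-fold above the unclamped kidney after 60 min, and by less than that after 45 min. The type IV chains split, with Col4a1 higher in each clamped kidney, Col4a2 higher in all but that of 45 min at day 3, and Col4a3 and Col4a4 lower in both clamped kidneys of day 3. None of these differences passed limma's test over all genes with the 6 arrays (0 of 12734 genes at an adjusted p under 0.05 for clamped against 0 min, and 1217 higher and 641 lower at an unadjusted p under 0.05), so they are given by size.

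Male FVB/N mice aged 6 to 8 weeks and weighing 22 to 26 g were anesthetized with pentobarbital, and the renal pedicle of one side, which holds the kidney's vessels, was closed with a microclamp for 45 or 60 min or for 0 min and then freed. Kidneys were taken at day 1 or day 3, with 1 Affymetrix array for each of the 6 combinations. The protocol lists 0 min among the clamp times, so the 0 min mice are taken to have had the anesthesia and flank incision too, and no array of an unoperated mouse was analysed here. Whether an array held RNA of 1 animal or a pool is not given in the sources used here. With no second array of any group, p-values rest on the spread of the 6 arrays around a fitted model with 2 residual degrees of freedom. That spread may be biological or technical and is not a spread of replicates. In the fit of clamp effects it includes any difference of the clamp effect between the days. In the fit of day effects it includes any difference between 45 and 60 min. For each gene's variance limma also drew on all genes past the filter. The small number of arrays sets the precision.

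Collagens are secreted proteins of 3 chains wound into a triple helix. Fibrillar collagens form the cables of the interstitium, and types I and III are the main ones laid down by kidney fibroblasts and pericytes when scar forms. Type IV collagen forms the sheet-like network of basement membranes. Its alpha1 and alpha2 chains are present in nearly all basement membranes, while alpha3, alpha4 and alpha5 form the mature glomerular basement membrane and some tubular ones and are the chains mutated in Alport syndrome. Type VI makes beaded filaments around cells, types XV and XVIII carry glycosaminoglycan chains near basement membranes, and FACIT collagens sit on the surface of fibrils.

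The arrays had median intensities of 81.4 to 95.3. RNA degradation raises the signal of 3' over 5' control probe sets, and for beta-actin that log2 ratio spanned 1.03 to 1.12 on 4 arrays. It was lower at day 3 in the unclamped kidney (0.77) and after 60 min (0.49), and its part in the collagen values was not tested. Kidney markers were bright on each array (Umod from 27164 to 39076, Slc34a1 from 13046 to 24702). The injury marker Havcr1 followed the clamp labels, with 599, 4216 and 13011 in order of clamp time at day 1 and 1242, 2548 and 11483 at day 3. In whole kidney RNA, more cells of a type and more RNA per cell cannot be told apart.

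Among the fibrillar collagens, Col1a1 and Col1a2 encode the alpha1 and alpha2 chains of type I, the main collagen of scar, and Col3a1 encodes type III. Col1a1 had an intensity of 131 in the 0 min kidney of day 1, 1209 after 45 min and 1326 after 60 min. At day 3 the same order of clamp times gave 535, 684 and 1395. The 0 min kidney of day 1 was thus the low array, and the unclamped kidney of day 3 already stood well above it. Col3a1 went from 1675 to 11604 after 45 min and 10405 after 60 min at day 1, and from 5818 to 11019 and 18832 at day 3. Col1a2 read 2241 without clamping, 9475 after 45 min and 9731 after 60 min at day 1, against 5626, 7714 and 15031 at day 3. On the probe sets read, each clamped kidney was above the unclamped kidney of its day for all 3 genes. The highest of the 6 arrays was the 60 min kidney of day 3. A second probe set of Col1a1 was lower after 45 min than after 0 min at day 3 (209 against 264).

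Type V collagen sits inside type I fibrils and helps to start them. On the probe sets read, its 3 genes were higher with each step of clamp time on both days. The dimmest probe set of Col5a1 read 65.7 after 0 min and 57.5 after 45 min at day 3. Col5a1 measured 297, 653 and 767 in order of clamp time at day 1 and 429, 658 and 1195 at day 3. On the probe set read, Col5a2 was late, with 687, 861 and 1130.1 at day 1 but 474, 827 and 2290.2 at day 3. There its 60 min day 3 kidney stood apart from the other 5. A second probe set of Col5a2 read 178, 307 and 457 at day 1 and 194, 151 and 576 at day 3. On it the difference of 60 against 0 min was 1.29 at day 1 and 1.49 at day 3. Col5a3 stood at 114, 277 and 374 in the day 1 kidneys and 109.7, 164 and 269 in the day 3 kidneys. Col27a1, a fibrillar collagen best known in cartilage, differed from the rest. It read 2129.8 and 2172 after 0 and 45 min of day 1 but 984 after 60 min, and 1549, 1855 and 940.3 at day 3. Both kidneys clamped for 60 min lay below the other 4, and a second probe set of the gene was likewise lowest in them (509 and 367).

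**Figure D1:**
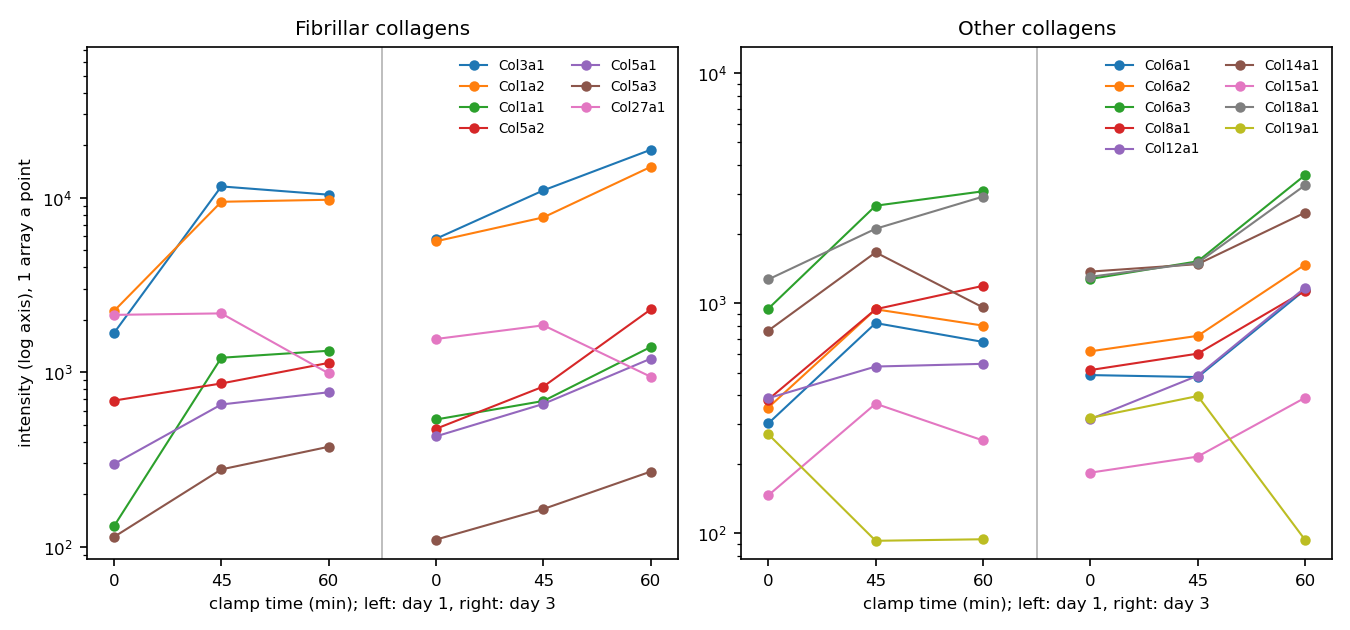
Intensity (log axis) of fibrillar collagens (left) and of 9 other collagens (right) on the 6 arrays, by clamp time in min, with day 1 and day 3 set apart by the vertical line. Each point is 1 array, lines join arrays of a day, and there are no error bars because no group has a second array. Col1a1 goes from 131 to 1326 at day 1 but starts from 535 at day 3, and Col27a1 is lowest in the 60 min kidneys (984 and 940.3).

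The fitted log2 difference of clamped kidneys (the mean of 45 and 60 min) against 0 min, ± SE from limma, was 2.00 ± 0.38 for Col3a1, 1.99 ± 0.55 for Col1a1 and 1.51 ± 0.34 for Col1a2. It was 1.12 ± 0.18 for Col5a3, 1.12 ± 0.18 for Col5a1, 1.01 ± 0.33 for Col5a2 and -0.38 ± 0.14 for Col27a1. The lowest limma adjusted p in the group was 0.165, for Col5a1 and Col5a3. At an unadjusted limma p under 0.05, 6 of the 7 genes were higher, where 9.56% of all genes were, and Col27a1 was lower, where 5.03% were. Without the 0 min day 1 array the difference was 1.31 for Col3a1, 0.93 for Col1a2 and 0.85 for Col1a1, and without the 0 min day 3 array it was 3.13 for Col1a1 and 0.51 for Col5a2. In the former case 5 collagens (Col5a2, Col5a3, Col3a1, Col5a1 and Col12a1) had an unadjusted limma p under 0.05 with 5.39% of all genes higher at that level.

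The sequence before the annotated start is shown for 3 of the genes that were at least 2-fold higher in 3 of the 4 clamped kidneys. The windows come from RefSeq (GRCm38.p6) and hold the 250 bases before the start. Capitals mark CCAAT or TATAAA on either strand, 2 short motifs of many promoters that do not overlap each other here. The windows are chr6:4505368-4505617 (plus strand), chr1:45311288-45311537 (plus strand) and chr10:76726045-76726294 (minus strand).
Col1a2: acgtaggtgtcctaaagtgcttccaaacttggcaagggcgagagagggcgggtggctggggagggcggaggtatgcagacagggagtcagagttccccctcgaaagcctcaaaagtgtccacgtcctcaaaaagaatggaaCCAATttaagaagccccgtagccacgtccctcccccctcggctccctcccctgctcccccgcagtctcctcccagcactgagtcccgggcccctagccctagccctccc
Col3a1: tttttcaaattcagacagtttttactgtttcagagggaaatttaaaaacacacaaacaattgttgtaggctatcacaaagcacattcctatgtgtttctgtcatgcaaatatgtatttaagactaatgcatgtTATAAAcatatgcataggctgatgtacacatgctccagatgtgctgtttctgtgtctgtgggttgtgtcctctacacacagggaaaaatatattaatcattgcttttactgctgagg
Col6a1: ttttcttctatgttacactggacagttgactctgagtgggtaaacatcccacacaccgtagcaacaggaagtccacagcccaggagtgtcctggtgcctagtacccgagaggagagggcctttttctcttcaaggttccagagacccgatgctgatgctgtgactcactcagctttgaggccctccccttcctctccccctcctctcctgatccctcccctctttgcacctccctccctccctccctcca
Col1a2 held 1 CCAAT, Col3a1 held 1 TATAAA, and Col6a1 held neither, so the 3 windows had no copy of either motif in common. Of the 27 collagens past the filter, 20 had a window, of which 8 (40%) held CCAAT in at least 1 window and 2 (10%) held TATAAA. Among all 32851 windows the shares were 33.8% and 12.4%. The collagen shares count genes, and Col18a1 and Col6a2 had more than 1 window, while the latter shares count windows. The 2 are therefore not in the same unit.

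Of the type IV chains, Col4a1 and Col4a2 shared 1 pattern and Col4a3 and Col4a4 another, while Col4a5 followed neither. Col4a1 and Col4a2 are neighbours whose annotated spans overlap, as are Col4a3 and Col4a4. Col4a1 went from 5355 without clamping to 13834 and 14937 after 45 and 60 min at day 1. At day 3 it read 6729.7, 7951 and 12253 in the same order. Its partner Col4a2 read 2658, 6182 and 6457 at day 1 and 3087, 2902 and 5842 at day 3. In both genes the 45 min kidney was high at day 1 and near the unclamped kidney at day 3, while the 60 min kidney was high on both days. A second probe set of Col4a1 read 1143 without clamping and 1822 after 45 min at day 3, a larger difference (0.67) than the one read (0.24). The limma difference of clamped against 0 min was 0.99 ± 0.25 for Col4a1 and 0.83 ± 0.29 for Col4a2 (adjusted p of 0.230 and 0.310). Without the 0 min day 1 array it was 0.55 and 0.41.

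Col4a3 had intensities of 1336, 1989 and 1479 in order of clamp time at day 1, and of 1966, 1819 and 1097 at day 3. Col4a4 measured 4704, 6362 and 4726 at day 1, then 6986, 5551 and 4091 at day 3. The 45 min kidney of day 1 was above its control for both chains and the 60 min kidney of day 3 was the lowest of the 6 arrays. The other probe set of Col4a3 and the other 2 of Col4a4 were lowest in that kidney as well (1117, 2955 and 815). Against the unclamped kidney of the day, the 60 min kidney of day 3 differed by -0.83 for Col4a3 and -0.77 for Col4a4, in log2(intensity + 16), while Col4a1 and Col4a2 differed by 0.86 and 0.92. Podocytes are the textbook source of these chains in the glomerulus. The podocyte genes Nphs1 and Podxl differed there by -0.53 and -0.38, and Wt1 and Synpo by 0.38 and 0.49, and their part in the Col4a3 and Col4a4 values was not tested. The list's summed intensity ran from 2349 to 2845 in 0 min kidneys and from 2422 to 2960.0 in clamped ones.

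Col4a5, which pairs with alpha3 and alpha4, read 1107 in the 0 min kidney of day 1, 3044 after 45 min and 2202 after 60 min. The day 3 kidneys read 2152, 1797 and 2354. The low value is the unclamped kidney of day 1 alone, and the clamped kidneys of day 3 lay on either side of their 0 min kidney. Its difference of clamped against 0 min was 0.57 ± 0.35 (limma adjusted p = 0.492) and turned to -0.06 without the 0 min day 1 array. Col4a6, its neighbour, did not pass the filter and read at most 77.6. Over the 5 type IV genes past the filter the median difference was 1.21 after 45 min and 0.98 after 60 min at day 1, and -0.11 and 0.13 at day 3. The fibrillar medians in that order were 1.18, 1.59, 0.52 and 1.42, and those of the 15 other collagens 0.67, 0.48, 0.16 and 0.84. Medians of all genes lay between -0.03 and 0.04.

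**Figure D2:**
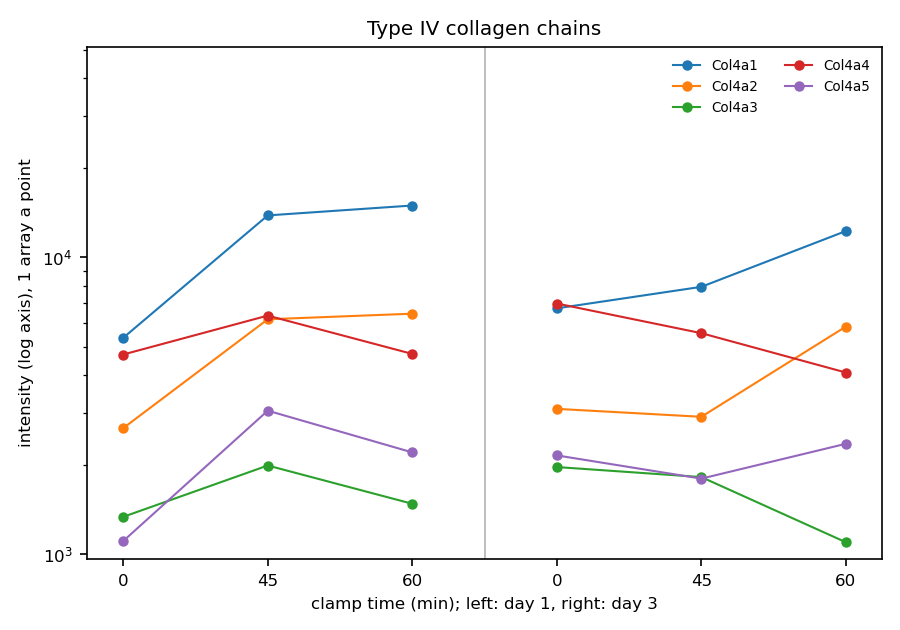
Intensity (log axis) of the 5 type IV collagen genes past the filter on the 6 arrays, by clamp time in min, day 1 left and day 3 right of the vertical line. Each point is 1 array and lines join arrays of a day. In the 60 min day 3 kidney Col4a1 and Col4a2 (12253 and 5842) are above their 0 min values, and Col4a3 and Col4a4 (1097 and 4091) are below theirs.

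The 3 type VI genes past the filter had nearly the same pattern. Col6a1 had 301, 821 and 679 in order of clamp time at day 1 and 488, 478 and 1146 at day 3. Col6a2, next to it in the genome, had 352, 942 and 799.9 at day 1 and 618, 722 and 1473 at day 3. Col6a3, on another chromosome, read 947, 2656 and 3068, then 1276, 1523 and 3609. On the probe set read for each, both clamped kidneys of day 1 and the 60 min kidney of day 3 were at least 2-fold above the 0 min kidney of their day. The 45 min kidney of day 3 differed by -0.03 to 0.25. The limma differences of clamped against 0 min were 0.93 ± 0.35, 0.99 ± 0.30 and 1.22 ± 0.28. A second probe set of Col6a2 stayed under 2-fold in each clamped kidney. After 45 and 60 min it differed by 0.55 and 0.58 at day 1 and by -0.16 and 0.64 at day 3. Col8a1, a short network-forming collagen of vessels, followed with 382, 942 and 1191 at day 1 and 513, 604 and 1133 at day 3 (1.06 ± 0.24).

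Col18a1, whose protein holds the fragment endostatin, had 1269.8, 2109 and 2909 in order of clamp time at day 1 and 1304, 1499.8 and 3262 at day 3. It was higher with each step of clamping on both days (0.86 ± 0.18 clamped against 0 min, and 0.79 ± 0.21 for 60 against 45 min). Its relative Col15a1 had 146, 366 and 253 at day 1 and 184, 216 and 389 at day 3, highest after 45 min on the first day and after 60 min on the third.

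The FACIT genes were mixed. On the probe set read, Col12a1 was late like Col5a2, at 387, 531 and 546 in order of clamp time at day 1 and 314, 485 and 1169.7 at day 3. A second probe set of Col12a1 was not late, with 77.1, 147 and 137 at day 1 and 99.1, 127 and 152 at day 3. Col14a1 had 761, 1665 and 959 at day 1 against 1373, 1480.0 and 2479 at day 3, with no steady order by clamp time on the first day. Col16a1 was highest in the 60 min kidneys of both days (383 and 363, against 178 and 232 at 0 min). Col19a1 went the other way. It read 269.7 in the 0 min kidney of day 1 and 92.8 and 94.3 in the clamped ones, then 318, 395 and 93.6 at day 3. Thus 3 kidneys were low, the 45 min kidney of day 3 was not, and the gene's second probe set had the same 3 low arrays (44.5, 67.3 and 80.0, against 199 to 218 on the others). Its limma difference was -1.02 ± 0.42.

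Col20a1, Col22a1, Col7a1, Col26a1 and Col13a1 differed by -0.22 ± 0.19, -0.22 ± 0.12, -0.28 ± 0.13, -0.02 ± 0.29 and 0.06 ± 0.13 (clamped against 0 min). Col22a1 read 53.9 and 58.0 in the 0 min kidneys and 40.1 to 51.9 in the clamped ones. The mean of its clamped kidneys lay under the filter, so it passed only through the 0 min kidneys and nothing is drawn from its difference. Col7a1, for the anchoring fibrils of skin, ran from 89.4 to 144. Col26a1 ran from 59.9 to 143. The transmembrane collagen gene Col13a1 read 71.8 to 98.4 at day 1 and 38.0 to 45.9 at day 3, and its 3 day 3 arrays lay under the intensity that the filter stands for (48.4). It passed the filter only through day 1, so no test of the days is drawn from it. The 15 collagens below the filter were Col2a1, Col11a1, Col11a2, Col24a1, Col4a6, Col6a4, Col6a5, Col8a2, Col10a1, Col9a1, Col9a2, Col9a3, Col17a1, Col23a1 and Col25a1. They include the cartilage collagens of types II, IX, X and XI, and Col10a1 stayed between 1.81 and 6.45. Their intensities did not exceed 80.1 on any array, and no fold is given for them.

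Counted by size, 14 of the 27 collagens were at least 2-fold higher and 1 lower after 45 min than after 0 min at day 1, where 3.57% and 1.06% of all genes were. After 60 min at day 1 the counts were 13 and 2 (all genes 4.39% and 1.71%). At day 3 they were 0 and 0 after 45 min (all genes 2.29% in either direction) and 13 and 1 after 60 min (all genes 7.58% and 2.32%). The genes lower were Col19a1 in 3 of these kidneys and Col27a1 in the 60 min kidney of day 1. By group, the higher genes were 5, 5, 0 and 6 of the 7 fibrillar ones in that order, 3, 2, 0 and 0 of the 5 type IV ones and 6, 6, 0 and 7 of the 15 others. Kidneys of a day share their 0 min array in these counts. On the probe sets read, the 9 collagens at least 2-fold higher in 3 of the 4 clamped kidneys were Col1a1, Col1a2, Col3a1, Col5a1, Col5a3, Col6a1, Col6a2, Col6a3 and Col8a1 (all genes 2.08%). The kidney that fell short was that of 45 min at day 3 for each.

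With the mean of both 0 min arrays as the reference, a choice made after seeing the data, 3 collagens were at least 2-fold higher in the 45 min kidney of day 3 (all genes 1.32%). The counts were 10 and 10 in the 45 and 60 min kidneys of day 1 (all genes 2.29% and 3.90%) and 16 in the 60 min kidney of day 3 (all genes 7.65%). With any size of difference on the probe sets read, 14 collagens were above the 0 min kidney of their day in each clamped kidney (all genes 16.7%). For some of these, other probe sets were below it after 45 min at day 3, as for Col1a1 (-0.31), Col5a2 (-0.34) and Col6a2 (-0.16). A second probe set of Col14a1 was below it after 60 min at day 1 (-0.20). On the probe sets read, 3 collagens were below the 0 min kidney of their day in each clamped kidney (all genes 15.6%). These were Col20a1, Col22a1 and Col7a1. Col22a1 passed the filter only through the 0 min kidneys, so it is no support for this count.

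**Figure D3:**
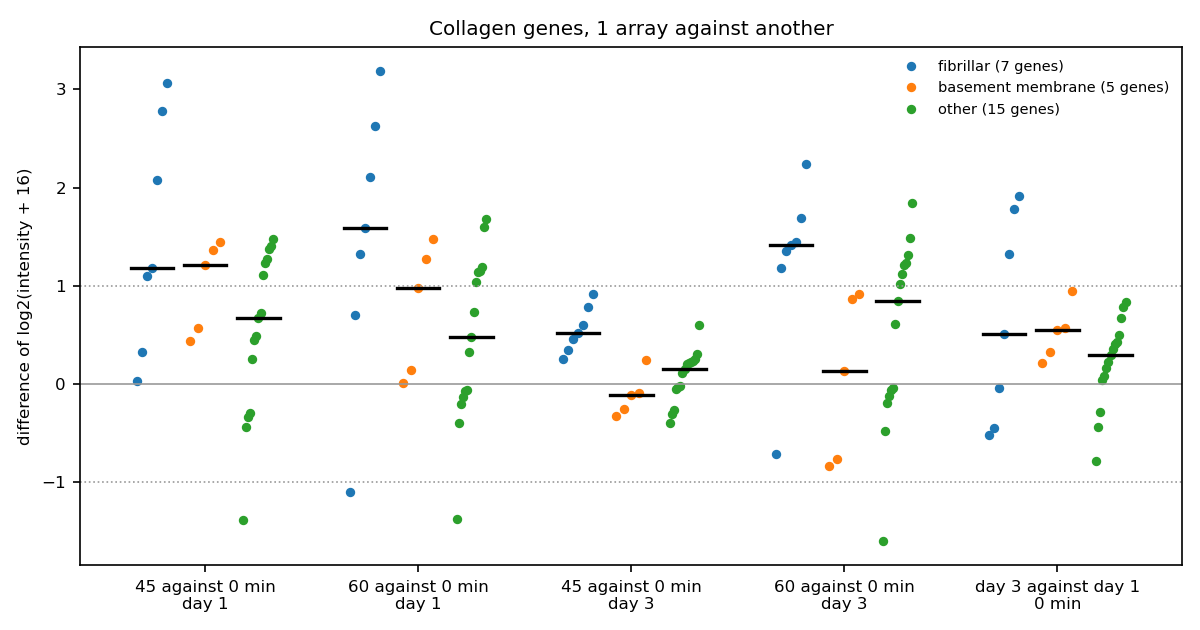
Difference of log2(intensity + 16) between 2 arrays for the 27 collagens past the filter, in 5 comparisons, by group. Points are genes, black bars are medians, and dotted lines mark 2-fold. Fibrillar medians are 1.18 and 1.59 at day 1 and 0.52 and 1.42 at day 3 for 45 and 60 min, and 0.51 between the 2 unclamped kidneys.

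The longer clamp was set against the shorter one within each day. At day 1 the 2 clamped kidneys were alike for most members, with a median difference of 0.04 for 60 against 45 min and 0 collagens at least 2-fold higher (all genes 1.02%). Col27a1 (-1.13) and Col26a1 (-1.06) were at least 2-fold lower (all genes 0.982%). At day 3 the median was 0.74, against 0.09 for all genes, with 8 collagens at least 2-fold higher (all genes 5.96%) and Col19a1 lower at -1.91 (all genes 2.40%). The higher genes were Col5a2 (1.45), Col12a1 (1.24), Col6a3 (1.24), Col6a1 (1.23), Col18a1 (1.11), Col1a1 (1.01), Col6a2 (1.01) and Col4a2 (1.01). Over both days, the limma fit gave Col27a1 -1.05 ± 0.17 (adjusted p = 0.306), Col5a2 0.92 ± 0.38 and Col18a1 0.79 ± 0.21. At an unadjusted limma p under 0.05, Col18a1, Col16a1, Col5a1 and Col5a3 were higher (all genes 7.76%) and Col27a1 lower (all genes 5.29%), and 0 passed after adjustment. Without the 45 min day 3 array the fitted difference of 60 against 45 min was -0.33 for Col1a1, -0.39 for Col3a1 and -0.25 for Col6a1, and that of Col18a1 was 0.49.

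Between the days, the unclamped kidneys themselves differed. Col1a1, Col3a1 and Col1a2 were higher at day 3 than at day 1 without clamping by 1.91, 1.79 and 1.32, the 3 collagens past 2-fold (all genes 1.71%, and 1.40% lower). The matricellular gene Sparc differed by 1.11 in the same comparison. The median of the collagens was 0.36, and 21 of 27 were above 0. Of all genes 6349 of 12734 were above 0, with a median of -0.001. After 45 min the collagen median was -0.30 and 3 of 27 were higher at day 3. Of all genes 5261 of 12734 were higher, with a median of -0.07. Col19a1 was higher by most (1.92, the 1 collagen past 2-fold, all genes 1.19%), while Col4a2 was lower (-1.09, all genes 2.06% past 2-fold). After 60 min the median was 0.10, and Col14a1 (1.36), Col12a1 (1.08) and Col5a2 (1.01) were at least 2-fold higher at day 3 (all genes 3.01%, and 1.09% lower). Second probe sets of Col12a1 and Col5a2 differed by only 0.13 and 0.32. Col1a1, Col1a2 and Col3a1 differed by 0.07, 0.63 and 0.85 between these kidneys.

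How far the clamp effect differed from day 1 to day 3 was fitted with the clamped kidneys of a day joined. The day 3 effect minus the day 1 effect was -2.28 ± 0.64 for Col1a1, -1.40 ± 0.53 for Col3a1 and -1.28 ± 0.45 for Col4a5, a smaller difference from the unclamped kidney at day 3 than at day 1. These 3 were the collagens at an unadjusted limma p under 0.05 (0.0167, 0.0465 and 0.0362; all genes 1.04% lower and 1.18% higher), and each had an adjusted p = 1.00. All 3 were also higher in the unclamped kidney at day 3 than at day 1, which enters this contrast, so an effect of the day and of that 1 array cannot be told apart. Col12a1 and Col5a2 had 0.76 ± 0.75 and 1.00 ± 0.88. For day 3 against day 1 in clamped kidneys, 0 collagens were higher at that level (all genes 1.75%), and 0 were lower besides Col13a1, which had passed the filter through day 1 (all genes 2.35%).

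Over the 4 limma contrasts 0 of the 27 collagens passed an adjusted p under 0.05 (all genes 0% in each). For clamped against 0 min, 16 were higher and 1 lower at an unadjusted p under 0.05 (all genes 9.56% and 5.03%), with a collagen median of 0.83 against 0.01 for all genes. Without the 45 min day 3 array, 7 collagens passed limma's adjusted test, where 1.37% of all genes were higher and 0.204% lower. Higher were Col3a1 (2.35 ± 0.26), Col1a2 (1.83 ± 0.21), Col6a3, Col6a1 (1.30 ± 0.14), Col6a2 (1.29 ± 0.14) and Col5a1 (1.25 ± 0.14), and lower was Col19a1 (-1.47 ± 0.15). That fit has 1 residual degree of freedom and 1 array at 45 min. For each of these genes the array left out differed least, among the clamped kidneys, from the 0 min kidney of its day. So the small SEs do not show precision. With all arrays and a robust variance trend Col5a1 alone passed, at a limma adjusted p = 0.0472 (all genes 0.518% higher). Other arrays moved fitted values by over 1.5 times. Without the 0 min day 1 array, Col6a1 was 0.59, Col8a1 0.68 and Col27a1 -0.23. Without the 45 min day 1 array, Col4a2 was 0.55, Col6a1 0.56 and Col15a1 0.51. At day 3, leaving out the unclamped kidney gave 0.46 for Col12a1 and 1.24 for Col4a2, and leaving out the kidney clamped for 60 min gave 0.52 for Col12a1.

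**Figure D4:**
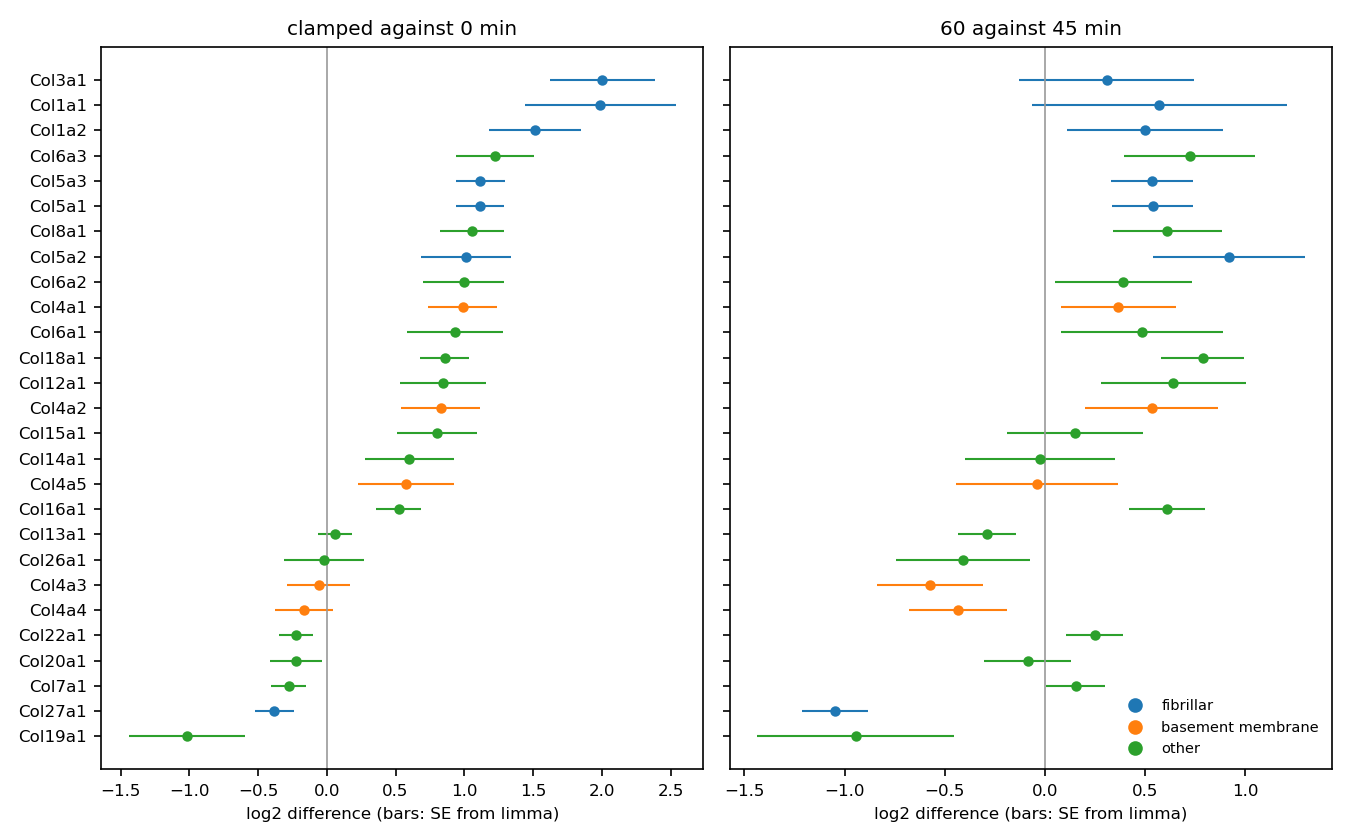
Fitted log2 differences of the 27 collagens past the filter for clamped against 0 min (left) and 60 against 45 min (right), sorted by the former, with bars of 1 SE from limma. Colours give the 3 groups. Col3a1 (2.00 ± 0.38) is at the top of the left panel and Col19a1 (-1.02 ± 0.42) at the bottom, and Col27a1 is lowest on the right (-1.05 ± 0.17).

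Genes that make and modify collagen in the cell differed little as a list. Of 19 measured genes past the filter, 2 were higher and 0 lower in clamped kidneys at an unadjusted limma p under 0.05. Of all genes 9.56% were higher and 5.03% lower, so this share is near the background. After adjustment 0 passed, and the median was 0.04 (all genes 0.01). The 2 were Serpinh1, the collagen chaperone HSP47, at 0.93 ± 0.14, and P3h3, a member of the prolyl hydroxylase family, at 0.84 ± 0.18. Serpinh1 read 1782, 3106 and 4152 in order of clamp time at day 1 and 2331, 4096 and 4381 at day 3, and so stayed high after 45 min on the third day. Also named by size were P3h1 (0.47 ± 0.21) and Creb3l1 (0.43 ± 0.19), a transcription factor of collagen secretion.

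Outside the cell, 4 of 10 genes of procollagen processing and crosslinking were higher by the same measure (all genes 9.56%, and 5.03% lower), 0 were lower or passed after adjustment, and the median was 0.48. Bmp1, the protease that removes the C-propeptide, had 1.41 ± 0.15, from 45.0 to 135 and 173 at day 1 and from 85.4 to 184 and 321 at day 3. The crosslinking oxidases Lox and Loxl1 had 0.95 ± 0.25 and 0.64 ± 0.14. The fourth was Pcolce2, for an enhancer of procollagen processing, which read 25.9 and 75.0 in the 0 min kidneys and 84.7 to 215 in the clamped ones. The mean of its 0 min kidneys lay under the filter, so it passed only through the clamped kidneys, and its difference is no support for the count. Among 10 fibril regulators 4 were higher and 0 lower against the same shares of all genes (median 0.42, 0 after adjustment), namely Sparc (1.04 ± 0.38), Dpt (0.99 ± 0.28), Bgn (0.70 ± 0.20) and Aebp1 (0.38 ± 0.13). Lum, a small proteoglycan of fibrils, had 0.68 ± 0.35 and did not reach that level. Of these, Dpt had 567 after 45 min and 268 after 60 min at day 1, and 644 and 744 at day 3.

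Collagen receptors differed less. Of 7 past the filter 2 were higher and 0 lower at an unadjusted limma p under 0.05 (all genes 9.56% and 5.03%, median 0.29, 0 after adjustment). They were the uptake receptor gene Mrc2 (0.71 ± 0.22) and the receptor kinase gene Ddr2 (0.51 ± 0.16), while Itga10 had -0.42 ± 0.21 and Lair1 0.37 ± 0.24. The mean of the clamped kidneys lay under the filter for Itga10. It passed only through the 0 min kidneys, so nothing is drawn from its difference. Non-collagen basement membrane genes had a median of 0.39 over 13, with 3 higher (Nid1, Lama2 and Agrn, the last at 0.55 ± 0.15), 0 lower and 0 after adjustment, beside the same shares of all genes. Nid1, whose product joins laminin to type IV collagen, had 1617, 4319.7 and 3767 in order of clamp time at day 1 and 2321, 2527 and 4883 at day 3 (0.95 ± 0.30). The 3 high kidneys were the same as for Col4a2. Lama2 had 0.64 ± 0.19, and Nid2 and Lamc1, short of that level, 0.77 ± 0.33 and 0.75 ± 0.33.

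Summed markers of collagen-producing cells were also higher in clamped kidneys. The 7 fibroblast and pericyte markers summed to an intensity of 3697 to 3979 in 0 min kidneys and 4916 to 8080.3 in clamped ones, with Pdgfrb at 0.82 ± 0.18, Dpt at 0.99 ± 0.28, Cygb at 0.95 ± 0.36 and Pdgfra at 0.50 ± 0.23. The 6 myofibroblast and smooth muscle markers summed to 3246 to 4837 and 5624 to 14842, with Postn at 2.20 ± 0.39, Tagln at 1.54 ± 0.21, Acta2 at 0.90 ± 0.20 and Myh11 at 0.05 ± 0.26. The lowest fitted difference in this list was -0.002. For 45 against 0 min at day 3, 3 of its 5 genes past the filter were above 0 (all genes 5792 of 12734). The median of the list there was 0.02 and the lowest value -0.59. Injured tubule markers (5) summed to 5596 to 6138 and 9609.6 to 37447. Monocyte and macrophage markers (6) summed to 4575 to 8238 and 7779.5 to 28697, which overlap across the days but not within either day. From day 1 to day 3 the 0 min kidneys, which differed in Col1a1, went from 3979 to 3697 in the fibroblast and pericyte sum, from 3246 to 4837 in the myofibroblast and smooth muscle sum and from 4575 to 8238 in the macrophage sum. Their part in the collagen values was not tested.

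Markers of tissue next to the kidney had overlapping sums in clamped and 0 min arrays. Perirenal fat markers (3 of 4 on the array) summed to 1932 to 1983 in 0 min kidneys and 1534 to 2533 in clamped ones, but 1 of them, Ucp1, read 153 and 189 in 0 min kidneys and 301 to 498 in clamped ones (1.20 ± 0.15). Its part in the collagen values was not tested. Urothelial markers (4) gave 585 to 634 and 429.8 to 619, and skin and cartilage markers (4, of which only Krt5 passed the filter) 185 to 307 and 157 to 297. The 6 endothelial markers lay between 7243 and 8318 on all arrays. The proximal tubule, loop and distal tubule, and collecting duct lists had medians of -0.31, -0.72 and -0.35 in clamped against 0 min kidneys.

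The probe set read for a gene mattered in a few places. A second probe set of Col1a1 went from 8.67 to 321 and 358 at day 1, but at day 3 it read 264 without clamping and 209 after 45 min, the opposite order of the main one. At 60 min of day 3 it read 585. The second probe set of Col5a2 was also lower after 45 min than after 0 min at day 3 (151 against 194). For 60 against 45 min at day 3, Col12a1 differed by 1.24 on the probe set read. Its other probe sets gave 0.22, and -0.55 and -0.44 where dim. Second probe sets of Col3a1 (134, 1378 and 1542 at day 1, 514, 818 and 2475 at day 3) and Col1a2 (332, 3245 and 3531, then 1216, 1670.5 and 4859.8) kept the order of 0 min below 45 min below 60 min at day 3. The second probe set of Col5a3 was near background, at 1.76 to 6.57.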

How the data were processed

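The series holds 6 mouse kidney arrays. Affymetrix Expression Console is named per the submitters' processing notes, with its version and summary method not given in the sources used here. The authors deposited a linear intensity for each probe set. Their trimmed mean was 500.003 on every array, so they had been scaled to 1 target. The platform annotation gave 1 gene symbol to 34945 probe sets, several to 932 and none to 9160, besides 64 controls. All 42 collagen symbols matched the gene table, unchanged. Each gene was read from its brightest single-symbol probe set on average. Genes with a mean log2(intensity + 16) at or above the 40th percentile of non-control probe sets (12734 of 18193) were kept, and the added 16 makes differences of dim genes smaller.

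R 4.3.3 and limma 3.58.1 gave the contrasts, with p-values adjusted by Benjamini-Hochberg over 12734 genes. One model held clamp time and day, for the clamp effects. A second, for day effects, joined the clamped kidneys of each day. Pairs of single arrays got no p-value and were counted past 2-fold. The script was tested on simulated data. Named were 13 collagens chosen by hand, the 3 largest clamp differences and 2 largest differences between clamp times in each class, and up to 4 genes of each other list (for tubule, endothelial, macrophage and neighbouring-tissue markers sums or medians are given, and Ucp1 was named after its values were seen). Other members were named as counts required, after their values were seen. The members and lists were chosen with earlier results of these data known. A planned description of protein features was not run. Promoter windows are RefSeq's on GRCm38.p6.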

Additional observations from a re-analysis of the deposited data

Results flagged for a closer look

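Col4a3 and Col4a4 were set apart because both clamped kidneys lay above the unclamped kidney at day 1 and both lay below it at day 3. For Col4a3 the 4 differences were 0.57 and 0.14 at day 1 and -0.11 and -0.83 at day 3, after 45 and 60 min. For Col4a4 they were 0.43 and 0.01, then -0.33 and -0.77. Its 60 min kidney of day 1 was thus level with the unclamped one, and its other 2 probe sets were below it there (-0.33 and -0.09). By limma the day 3 effect of clamping minus the day 1 effect was -0.83 ± 0.55 and -0.77 ± 0.45, with an adjusted p = 1.00 for each. The unclamped kidney of day 3 was above that of day 1 by 0.55 and 0.57 for these genes.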

How the results depend on the processing

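No paired analysis was possible because each group holds 1 array and the groups share 1 replicate number; day was a term of the fits. Of 1259 values under alternatives, 1121 were counted as the same and 24 turned in sign. A gene's value was the same if it kept its sign and its side of the adjusted p threshold. As 0 collagens passed that threshold with all arrays, staying short of it counted as the same, whatever the change in size. Counts were the same within 1.5 times, and group medians within 0.17. The count of collagens called for clamped against 0 min went from 0 to 1 with a robust variance trend and ran from 0 to 7 with 1 array left out (7 without 45 min day 3); for 60 against 45 min it stayed at 0 under each alternative run. Collagens at least 2-fold higher at 60 against 45 min of day 3 went from 8 to 5 with median centring or a pseudocount of 64 and to 17 at 1.5-fold. At 1.5-fold the counts were 4 for 45 against 0 min at day 3, and 7 and 10 for day 3 against day 1 at 0 and 60 min. With no filter on dim genes these 3 counts were 2, 5 and 5, that of day 3 against day 1 at 45 min was 2 and that of 60 against 45 min at day 1 was 1. Averaging the probe sets of a gene gave 0 for day 3 against day 1 at 60 min, and the mean of both 0 min arrays as reference, added later, gave 3 for 45 against 0 min at day 3. Except for that reference, the share of all genes past the same fold was not counted at these settings. A looser fold or filter can change that share too, so no result about collagens is drawn from these counts by size. Col13a1 turned to -0.0312 with median centring (clamped against 0 min) and Col12a1 to -0.10 with the mean of probe sets (60 against 45 min). With 1 array left out, clamped against 0 min ran from -0.0645 to 1.21 for Col4a5, -0.47 to 0.36 for Col4a3, -0.55 to 0.22 for Col4a4 and -0.31 to 0.26 for Col26a1. So did 60 against 45 min, from -0.33 to 1.47 for Col1a1, -0.14 to 1.13 for Col1a2, -0.39 to 1.01 for Col3a1, -0.0430 to 0.78 for Col4a1, -0.0270 to 1.09 for Col4a2, -0.68 to 0.60 for Col4a5, -0.25 to 1.22 for Col6a1, -0.21 to 0.99 for Col6a2, -0.0021 to 1.28 for Col12a1, -0.66 to 0.61 for Col14a1, -0.43 to 0.73 for Col15a1 and -0.980 to 0.16 for Col26a1. The cause of these changes was not tested. Dim genes are limited by background, and every group by its 1 array.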
